A study of Mus musculus with 15 samples.

Results

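The expression of 35 genes of the extracellular matrix was examined in mouse testis. They encode collagens, laminins, nidogens, proteoglycans and other proteins deposited around cells, and they were chosen by name. All 35 were found by their Entrez Gene ID among the 23510 gene IDs of the deposited table. The 15 libraries came from testes of male ICR mice, an outbred stock, in 5 groups of 3. Con was the control group, for which the labels name no virus. MNC received the lentiviral vector with a control short hairpin RNA (shRNA), and M1, M3 and M5 received lentiviruses with a mix of shRNAs against the muscarinic acetylcholine receptor of that number. Per the study's methods, virus was injected into the testes of pubertal mice of 5 weeks and the tissue was collected 10 days later, so each library holds the RNA of all cells of a testis, infected or not. No label says that the 3 libraries of a group came from separate animals, so that p-values measure only the spread between these samples.

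Values are FPKM, fragment counts divided by gene length and by how many fragments the library mapped. Differences between groups are given on the scale log2(FPKM + 1), which understates the change of genes at low levels. The transcripts of the targeted receptors were too low to check the labels. The 3 M5 libraries had 0.37, 0.22 and 0.37 FPKM of Chrm5, and those of MNC had 0.43, 0.23 and 0.43. Chrm1 did not exceed 0.17 FPKM and Chrm3 did not exceed 0.11 in any library. The markers of testis cells were present in every library, with 9145 to 27310 FPKM for 4 genes of elongating spermatids, 652 to 3127 for 5 genes of Leydig cells and 364 to 669 for 6 genes of Sertoli cells. The absolute depth of the libraries and their depth relative to each other are unknown.

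The matrix of the testis lies mainly outside the germ cells. A basement membrane surrounds each seminiferous tubule and carries the Sertoli cells and spermatogonia. It is built from networks of laminin and collagen IV that are joined by nidogens and the proteoglycan perlecan, and it is made by Sertoli cells together with the contractile peritubular myoid cells. Outside it, fibrillar collagens, collagen VI and small proteoglycans such as decorin fill the tubule wall and the interstitium, where Leydig cells, fibroblasts, macrophages and vessels lie. Spermatids make up much of a testis, so most matrix transcripts take a small share of its RNA.

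RefSeq promoter windows, from 250 bases before a gene's start to 50 after it on the mouse assembly GRCm38.p6, matched 24 of the 35 genes. The sequences below belong to some of the called genes, namely Lamb1, Lamb2 and Col18a1 (called between MNC and Con) and Fbn1 (called over the 5 groups). Those of Sparc and Col1a2, the most abundant secreted matrix protein gene and fibrillar collagen gene of the set, are also given. Nid2, called between M5 and M1 and over the 5 groups, had no window. Col4a1, also called over the 5 groups, is not shown. Each sequence shown is the part of the window before the outermost annotated start of the gene, written 5′ to 3′ on the strand of the gene. Capitals mark GGGCGG, the core of a binding site for factors of the Sp family, and CCAAT, the CCAAT box, read on both strands. The positions are chr12:31265043-31265145 on the plus strand for Lamb1, chr9:108479612-108479846 on the plus strand for Lamb2, chr10:77166531-77166780 on the minus strand for Col18a1, chr2:125506486-125506688 on the minus strand for Fbn1, chr11:55420081-55420330 on the minus strand for Sparc and chr6:4505368-4505617 on the plus strand for Col1a2.
Lamb1: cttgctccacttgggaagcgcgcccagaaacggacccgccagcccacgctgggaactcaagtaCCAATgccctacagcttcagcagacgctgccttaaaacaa
Lamb2: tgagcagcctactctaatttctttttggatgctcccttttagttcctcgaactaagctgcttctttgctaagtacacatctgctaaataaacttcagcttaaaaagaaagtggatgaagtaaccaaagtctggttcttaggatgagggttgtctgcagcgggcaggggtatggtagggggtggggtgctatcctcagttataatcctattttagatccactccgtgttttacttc
Col18a1: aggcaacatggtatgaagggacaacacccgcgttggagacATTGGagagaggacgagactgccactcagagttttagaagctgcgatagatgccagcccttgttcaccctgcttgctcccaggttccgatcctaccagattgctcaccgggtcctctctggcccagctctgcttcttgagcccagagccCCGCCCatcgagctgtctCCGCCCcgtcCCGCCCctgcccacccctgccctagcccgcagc
Fbn1: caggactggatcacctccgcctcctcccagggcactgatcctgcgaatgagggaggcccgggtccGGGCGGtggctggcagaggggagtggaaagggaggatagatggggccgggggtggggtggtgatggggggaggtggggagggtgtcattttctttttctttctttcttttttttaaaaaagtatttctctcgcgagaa
Sparc: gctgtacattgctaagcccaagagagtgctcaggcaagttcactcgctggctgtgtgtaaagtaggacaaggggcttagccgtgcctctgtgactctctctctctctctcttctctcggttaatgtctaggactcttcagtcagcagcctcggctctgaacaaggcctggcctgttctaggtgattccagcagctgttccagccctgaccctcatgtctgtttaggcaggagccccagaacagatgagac
Col1a2: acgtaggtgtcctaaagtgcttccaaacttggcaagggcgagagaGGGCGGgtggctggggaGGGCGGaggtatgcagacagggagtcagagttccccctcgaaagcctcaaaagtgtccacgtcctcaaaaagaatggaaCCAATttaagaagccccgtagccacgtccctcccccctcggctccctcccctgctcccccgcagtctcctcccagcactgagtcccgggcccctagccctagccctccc
The stretch of Col18a1 held 3 GGGCGG and 1 CCAAT, that of Col1a2 held 2 and 1, that of Fbn1 held 1 GGGCGG, and that of Lamb1 held 1 CCAAT. Neither motif was found in the stretches of Lamb2 and Sparc, and TATAAA, the TATA box, was found in none of the 6. Over the 250 bases before the start, 17 of the 29 windows of the matrix genes held GGGCGG, 58.6% against 32.7% of the 32851 windows of all genes. CCAAT was in 8 of 29, 27.6% against 33.9%, and TATAAA was in 2 of 29, 6.9% against 12.4%. A match is a run of letters in the reference sequence and was not tested as a bound site. Col4a1 and Col4a2 lie head to head on chromosome 8 on opposite strands, and their annotated spans overlap by 85 bases.

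The levels of the 35 genes spanned a wide range. Sparc was the highest with a mean of 179 FPKM over the 15 libraries, followed by Timp2 with 59.0, Dcn with 40.9, Bgn with 21.4 and Col1a2 with 19.8. The lowest were Col5a2 with 0.891 and Lama5 with 0.749, the 2 genes that did not reach the mean of 1 FPKM required for a test. The other 33 were tested among 14514 genes.

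Single libraries set much of the variation. In M5 replicate 3, all 35 genes were above their own mean over the 15 libraries and 23 had their highest value of all libraries, while 26.5% of all genes tested had theirs there. In M3 replicate 1, 24 of the 35 genes had their lowest value, against 14.2% of all genes tested. The 35 genes summed to 820 FPKM in M5 replicate 3 and to 316 in M3 replicate 1, with 359 to 603 in the other 13 libraries. The 2 other M5 libraries summed to 473 and 450, within the range of the 3 MNC libraries at 581, 464 and 399. The summed FPKM of all genes was between 470240 and 513820 in each library.

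**Figure D1:**
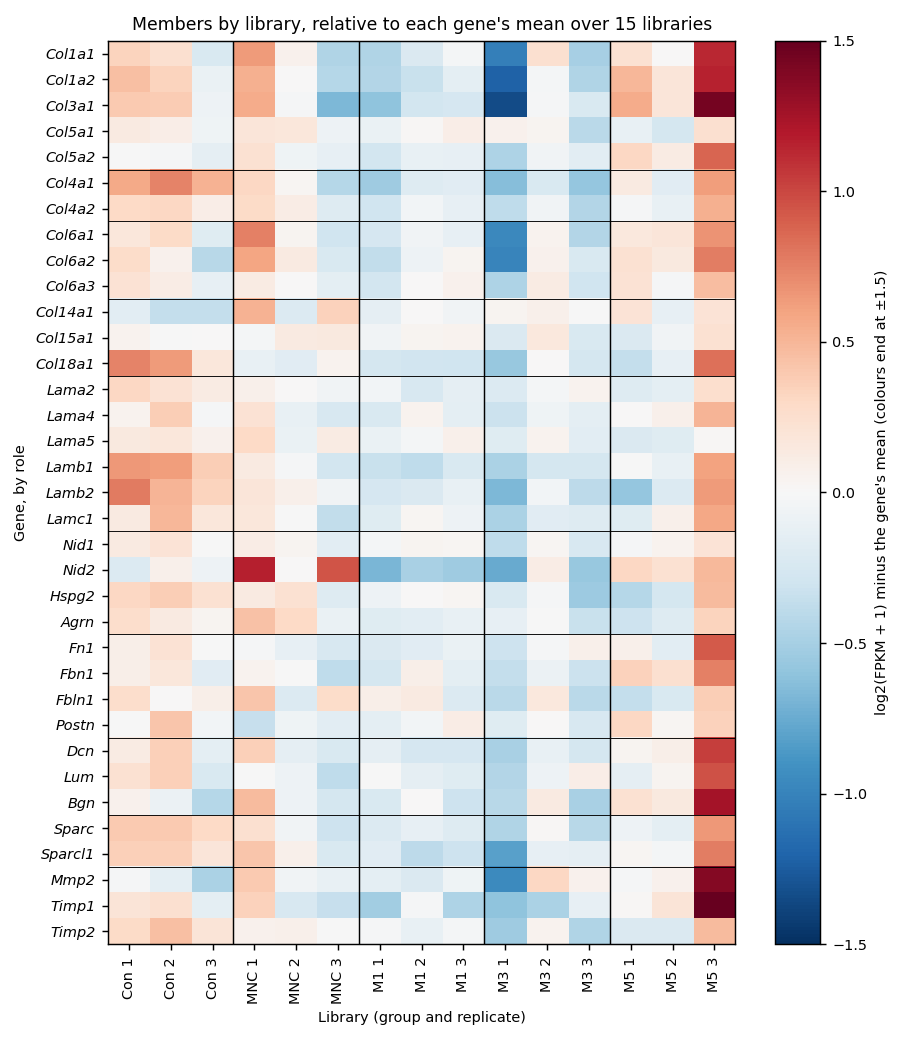
Each row is one of the 35 matrix genes, ordered by role, and each column one of the 15 libraries; colour gives log2(FPKM + 1) minus the mean of that gene over the 15 libraries, red above and blue below. M5 replicate 3 is red for all 35 genes, M3 replicate 1 is the bluest column, and Con replicates 1 and 2 and MNC replicate 1 are each above the mean for 30 of 35.

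The genes moved together from library to library. After the mean of each group was removed, the median Pearson r between pairs of the 33 tested genes over the 15 libraries was 0.734, against 0.048 between all genes tested. Over all 35 genes the median was 0.73, and it was 0.537 without M5 replicate 3 and M3 replicate 1, a choice made after seeing the data. All pairs share the same libraries, so that these values are a description. Sparc, Col1a1 and Col4a2 followed the median of the other genes most closely (r = 0.968, 0.957 and 0.951). Nid2, Postn and Col14a1 followed it least (r = 0.432, 0.333 and 0.32), and the remaining 32 genes had an r of at least 0.612.

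The summed markers of Leydig cells, stroma and macrophages were also highest in M5 replicate 3 and lowest in M3 replicate 1. The 5 Leydig genes, Cyp17a1, Star, Hsd3b1, Insl3 and Cyp11a1, summed to 3127 FPKM in M5 replicate 3 and to 652 in M3 replicate 1, with 1331 to 1984 in the other 13. The 4 genes of the interstitial stroma, Pdgfra, Pdgfrb, Tcf21 and Nr2f2, summed to 16.4 and 6.96 in these libraries and the 5 of macrophages to 42.4 and 12.5. The 5 endothelial genes were highest in M5 replicate 3 too, at 12.2 FPKM, but at 8.45 in M3 replicate 1 they lay within the 6.91 to 10.9 of the other 13. The 3 red blood cell genes reached 465 FPKM in M5 replicate 3, against 21.8 to 154 in the other 14. The 6 Sertoli genes had their highest sum there too, at 669. The 6 peritubular myoid genes summed to 194 FPKM in M5 replicate 3 and to 208 in M3 replicate 1, within the range of the other 13. Without Actg2 they summed to 48.8 and 32.2, again within that range. Of the Leydig sum in M5 replicate 3, Insl3 gave 2382 FPKM. Star was highest in MNC replicate 3 and Cyp17a1 in Con replicate 2, the other 3 in M5 replicate 3. All but Hsd3b1 were lowest in M3 replicate 1. No marker gene was listed at 0 in every library, and the 3 genes of the mesothelium that covers the testis summed to 0.57 to 2.59. The part of these cells in the results was not tested, and in whole tissue a smaller number of cells of a type and less RNA per cell cannot be told apart.

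**Figure D2:**
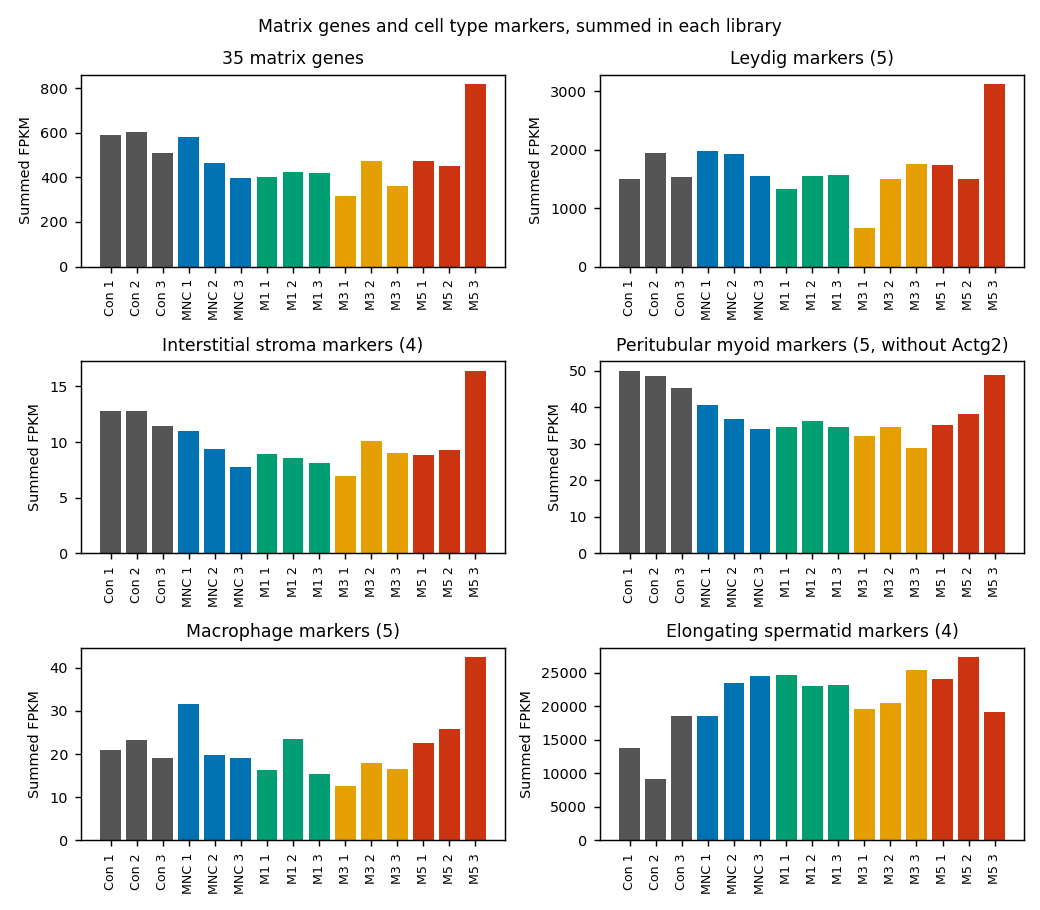
Bars give the summed FPKM (linear axis from 0) of the 35 matrix genes and of 5 marker lists in each of the 15 libraries, coloured by group. M5 replicate 3 has the highest bar for the matrix genes (820), the Leydig (3127), stroma (16.4) and macrophage (42.4) lists, and M3 replicate 1 has the lowest of these 4; elongating spermatid markers are lowest in Con replicate 2 (9145).

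The comparison of MNC with Con asked what goes with the injected vector. Here 3 of the 33 tested genes were called at a limma adjusted p under 0.05, and all 3 were lower in MNC: the laminin chains Lamb1 and Lamb2 and the basement membrane collagen gene Col18a1. Of all 14514 genes tested, 20.4% were called in this comparison and 12.4% were called lower, so that the share of matrix genes called was below the background. Over all 35 genes, 24 were lower and 11 higher in MNC, where 64.6% of all genes tested were lower, and the median log2 difference was -0.17 against -0.10 over all genes tested. The MNC and Con libraries did not overlap for 9 of the 33 tested genes, against 46.5% of all genes tested, a share below the background. By role, the 6 laminins, the 2 collagen IV genes and Sparc and Sparcl1 were lower, and the other roles held genes of both directions. The calls did not hold in every setting. Without Con replicate 1, Con replicate 2 or MNC replicate 3, or with a replicate block, none was called. Calls over all genes tested fell in these settings too, from 2967 to 8, 195, 1032 and 10. Lamb1 had a log2 difference of -0.55, -0.56 and -0.49 without these libraries, against -0.60 with all. Without MNC replicate 2 the 2 calls were Nid2 and Col14a1, both higher in MNC, where 638 of all genes tested were called. Lamb1 kept its call under 9 of 15 alternatives, Lamb2 under 4 of 16 and Col18a1 under 3 of 15. These counts leave out the study's threshold, which called no matrix gene here and 2 of all genes tested.

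Setting M5 against MNC asked what accompanies knockdown of the M5 receptor. None of the 33 genes was called by limma, against 5.65% of all genes tested, and 2 of 33 (Postn and Fbn1) had an unadjusted p under 0.05, against 24.9% of all genes tested. Of the 35 genes, 24 were higher and 11 lower in M5, where 54.5% of all genes tested were higher, and the median log2 difference was 0.21 against 0.03 over all genes tested. The M5 and MNC libraries did not overlap for 2 of the 33 tested genes, against 32.1% of all genes tested. Without M5 replicate 3 the median was 0.01, with 18 higher and 17 lower, and without MNC replicate 3 it was 0.05. The size of the median thus rested on single libraries.

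In M1 and in M3 most of the genes were below MNC, and none was called. Of the 35 genes, 31 were lower in M1 (median log2 difference -0.21 against -0.02 over all genes tested) and 32 were lower in M3 (-0.28 against -0.04), where 57.1% and 60.6% of all genes tested were lower. Without MNC replicate 1 the median was -0.04 in M1 and -0.15 in M3, and without M3 replicate 1 it was -0.19 in M3. At an unadjusted p under 0.05 there were 4 of 33 genes in M1 (Nid2, Lamb2, Col18a1 and Agrn) and 2 in M3 (Nid2 and Lamb2), all lower, where 5.94% and 9.43% of all genes tested passed. In these comparisons limma called 0% and 0.00689% of all genes tested. M1, M3 and M5 were set against the same 3 MNC libraries, which the 3 comparisons therefore share.

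The knockdowns were also set against each other. Against M1, M5 had 30 of 35 genes higher (median 0.39, against 0.04 over all genes tested, of which 57.6% were higher), and 1, Nid2, was called higher by limma, where 6.75% of all genes tested were called and 3.23% were called higher. Against M3, M5 had 34 of 35 higher (median 0.43 against 0.06, where 61.3% of all genes tested were higher) and none was called, where 0.0138% of all genes were. At an unadjusted p under 0.05 there were 9 of 33 genes against M1, all higher in M5, where 25.4% of all genes tested passed, and 11 against M3, all higher, where 14.3% passed. The libraries did not overlap for 14 of 33 genes against M1 and 14 against M3, where 33.7% and 22.9% of all genes tested did not. Without M5 replicate 3 the medians were 0.15 with 25 of 35 higher and 0.22 with 27 of 35 higher. Without that library 4 genes were called higher than in M1, namely Nid2 (log2 difference 0.84), Col3a1 (0.74), Col1a2 (0.65) and Dcn (0.28), with limma adjusted p from 0.0158 to 0.0459. In that setting 11.6% of all genes tested were called, so that 4 of 33 was near the background.

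Over the 5 groups in one F test, limma called 4 of the 33 genes, Lamb1 (adjusted p = 0.00903), Col4a1 (0.0127), Nid2 (0.0141) and Fbn1 (0.0336), where 33.6% of all genes tested were called. Without M5 replicate 3 the count was 10 of 33, where 40.2% of all genes tested were called. The group with the highest mean was M5 for 17 of the 35 genes, Con for 12 and MNC for 6, against 29.0%, 42.7% and 14.7% of all genes tested. M3 had the lowest mean for 25 of the 35, against 25.8% of all genes tested. M3 replicate 1 alone held the lowest value of 24 genes and M5 replicate 3 the highest of 23. The order of the groups without these libraries was not computed.

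**Figure D3:**
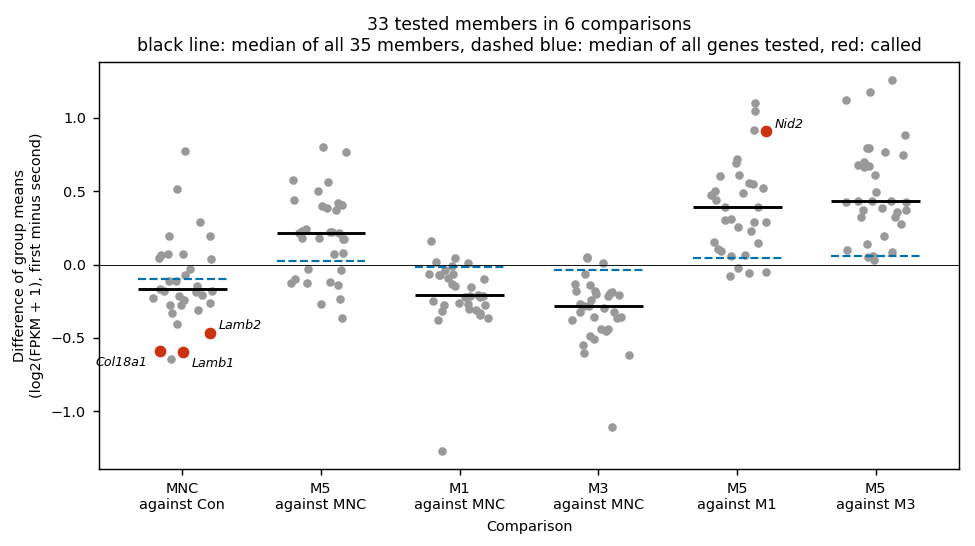
Each point is one of the 33 tested matrix genes, placed at its difference of group means in log2(FPKM + 1), first group minus second; red points were called by limma, black lines give the median of all 35 genes and dashed blue lines the median of all genes tested. Called points are Lamb1, Lamb2 and Col18a1 below 0 in MNC against Con and Nid2 above 0 in M5 against M1; the medians of M5 against M1 (0.39) and against M3 (0.43) stand highest.

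The laminins are heterotrimers of an alpha, a beta and a gamma chain, and the 6 chain genes were all lower in MNC than in Con, Lama5 only by 0.89 against 0.90 FPKM. Lamb1 (Gene ID 16777, chromosome 12, 31265146 to 31329644) encodes a beta chain found in many basement membranes. It was at 6.37, 6.27 and 5.07 FPKM in Con and at 4.18, 3.64 and 2.90 in MNC, so that the groups did not overlap, and as a log2 difference it fell by 0.60 (SE 0.133, limma adjusted p = 0.0327). In the other injected groups it was at 2.74, 2.61 and 3.02 FPKM in M1, at 2.38, 2.93 and 2.93 in M3 and at 3.68, 3.36 and 6.16 in M5. M5 replicate 3 was the only one of the 12 injected libraries above the lowest Con value. Lamb2 (Gene ID 16779, chromosome 9, 108479847 to 108490530), the beta chain of muscle and kidney basement membranes, had the highest level of the 6. It was at 14.01, 11.46 and 10.05 FPKM in Con, at 8.96, 8.27 and 7.47 in MNC, at 6.38, 6.52 and 7.11 in M1, at 4.50, 7.52 and 5.65 in M3 and at 4.85, 6.62 and 12.7 in M5. It fell by 0.47 between Con and MNC (SE 0.126, limma adjusted p = 0.047). Again only M5 replicate 3 among the injected libraries reached the Con range. Lama2 also had 11 of 12 injected libraries below the lowest Con value of 7.44 FPKM, with its lowest library in M1 replicate 2 at 5.6, and its difference of -0.21 between MNC and Con was not called (limma adjusted p = 0.0977). Lamc1, the common gamma chain, had 10 of 12 below, and Lama4 had 7 of 12. Lama5 ranged from 0.50 to 1.14 FPKM and was not tested.

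Collagen IV forms the network of the basement membrane from chains that include those of Col4a1 and Col4a2. Col4a2 had the higher mean over the 15 libraries (8.49 against 7.27 FPKM), while Col4a1 was higher in Con. Col4a2 was at 10.5, 10.6 and 8.98 FPKM in Con, at 10.4, 9.07 and 7.15 in MNC, at 6.57, 8.10 and 7.59 in M1, at 6.16, 8 and 5.86 in M3 and at 8.25, 7.66 and 12.6 in M5. The groups overlapped in Con, MNC and M5. Col4a1 (Gene ID 12826) was at 10.7, 12.2 and 10.3 FPKM in Con, at 8.74, 7.06 and 4.86 in MNC, at 4.44, 5.87 and 5.97 in M1, at 4.05, 5.74 and 4.27 in M3 and at 7.65, 5.98 and 11.2 in M5. All 3 Con libraries were above 11 of the 12 injected libraries. Its difference of -0.64 between MNC and Con was the most negative of the 33 genes but was not called (SE 0.187, limma adjusted p = 0.0559). The F test called Col4a1 and not Col4a2, and the difference between the 2 genes was not tested.

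Col18a1 (Gene ID 12822, chromosome 10, 77052178 to 77166530) encodes the basement membrane collagen whose end fragment is endostatin. It was at 7.05, 6.47 and 4.38 FPKM in Con, at 3.45, 3.28 and 3.98 in MNC, at 2.99, 2.94 and 2.91 in M1, at 2.24, 3.82 and 2.99 in M3 and at 2.74, 3.39 and 7.47 in M5. It fell by 0.59 between Con and MNC (SE 0.163), and its limma adjusted p of 0.04995 lay just under the threshold, while that of Timp2 at 0.0508 lay just over it. Col15a1, a related collagen at the basement membrane and the highest of its role, was nearly level. It was at 8.62, 8.27 and 8.30 FPKM in Con, at 8.10, 9.23 and 9.29 in MNC, at 7.96, 8.54 and 8.63 in M1, at 6.98, 9.39 and 6.92 in M3 and at 7.02, 7.95 and 9.86 in M5, a ratio of 1.42 between its highest and lowest library. Col14a1, which binds to collagen fibrils, had its lowest mean in Con, at 2.25 ± 0.274 FPKM (SD, n = 3) against 3.73 ± 1.17 in MNC, and was not called (limma adjusted p = 0.104).

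Nidogens bridge laminin and collagen IV, and the 2 genes varied by unlike amounts, with a ratio of highest to lowest library of 1.62 for Nid1 and 6.1 for Nid2. Nid1 had narrow groups, with 6.78, 7.18 and 6.04 FPKM in Con, 6.64, 6.30 and 5.36 in MNC, 5.98, 6.31 and 6.25 in M1, 4.43, 6.27 and 4.99 in M3 and 6, 6.34 and 7.15 in M5. Nid2 (Gene ID 18074, chromosome 14, 19751257 to 19811787) was at 2.21, 2.90 and 2.53 FPKM in Con, at 7.32, 2.72 and 6.11 in MNC, at 1.30, 1.65 and 1.57 in M1, at 1.2, 3 and 1.5 in M3 and at 3.61, 3.34 and 4.18 in M5. MNC was split, with replicate 2 in the Con range and the other 2 replicates above every other library. Between M5 and M1 the groups did not overlap, and Nid2 was higher in M5 by 0.91 (SE 0.115, limma adjusted p = 0.0131). It was called without M5 replicate 3 (0.84), and it was not called without M1 replicate 1, M1 replicate 3 or M5 replicate 2 or with a replicate block (limma adjusted p = 0.0787, 0.0702, 0.051 and 0.0926). In the settings without a call, 56, 85, 135 and 39 of all genes tested were called, against 980 in the main fit. Nid2 had the lowest p of the matrix genes also in M1 and in M3 against MNC, where its differences of -1.27 (SE 0.297) and -1.11 (SE 0.354) were not called (limma adjusted p = 0.819 and 0.518). Without MNC replicate 2, which had the low value, M1 against MNC was called (limma adjusted p = 0.0331). Of the proteoglycans of the basement membrane, Hspg2 (perlecan) ranged from 2.10 to 5.33 FPKM and Agrn (agrin) from 1.42 to 3.13, and neither was called.

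**Figure D4:**
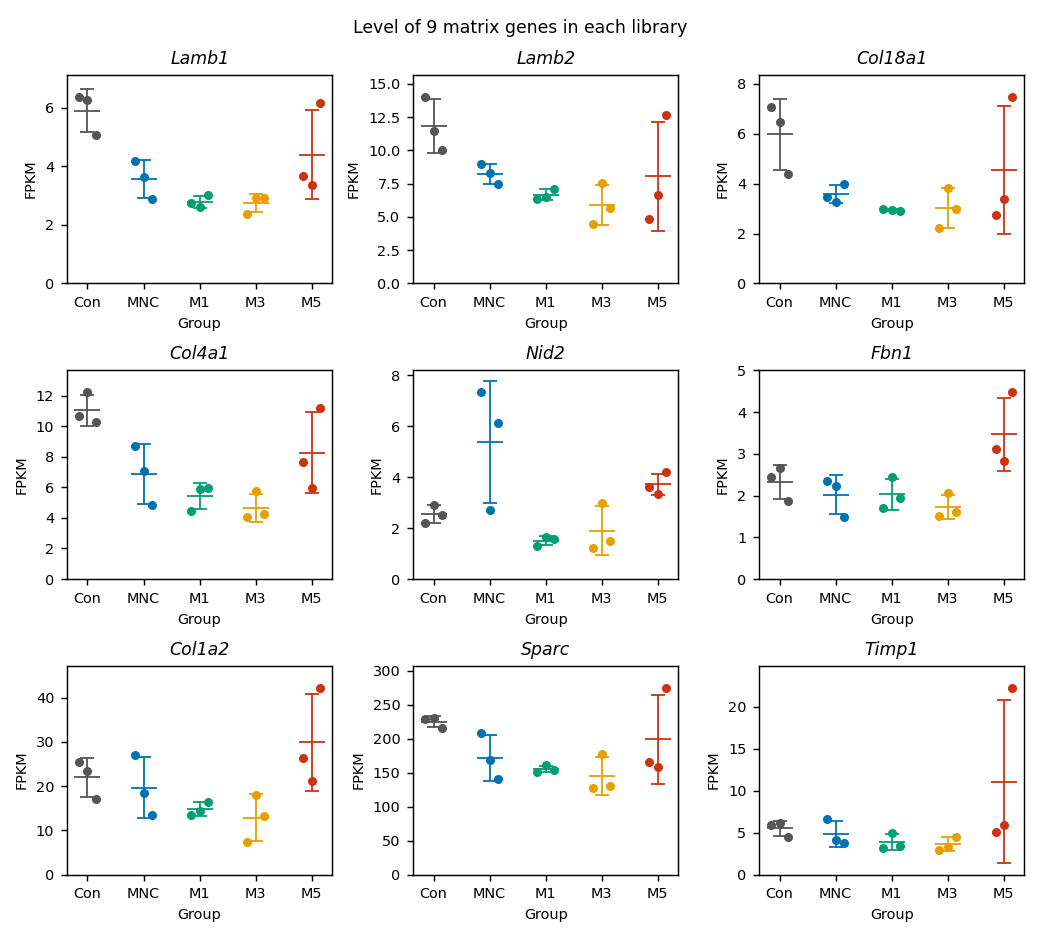
FPKM (linear axis from 0) of 9 matrix genes in each of the 15 libraries; each point is a library in order of replicate number, and bars give the mean and SD of the 3 libraries of a group. Lamb1, Lamb2, Col18a1 and Col4a1 are higher in Con than in nearly all injected libraries, Nid2 is split within MNC, and the third M5 library stands above the other 2 in all 9 panels.

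The fibrillar collagens give the interstitium and the tubule wall their tensile strength, and Col1a2, a chain of collagen I, was their most abundant member. It was at 25.5, 23.4 and 17.1 FPKM in Con, at 27.1, 18.5 and 13.5 in MNC, at 13.4, 14.3 and 16.5 in M1, at 7.36, 18.1 and 13.2 in M3 and at 26.4, 21.1 and 42.2 in M5. M5 lay above M1 and M3 in every library and overlapped MNC and Con. The difference of M5 from M1 was 0.92 (SE 0.237) and was not called (limma adjusted p = 0.0696). With a filter at a mean of 5 FPKM, which leaves out Nid2, it was the 1 matrix gene called in this comparison (limma adjusted p = 0.0495). Col1a1 and Col3a1 also had their lowest values in M3 replicate 1 (4.42 and 5.61 FPKM) and their highest in M5 replicate 3 (23.1 and 44.4). Col5a1 varied from 3.91 to 6.63 FPKM, a ratio of 1.7 between its highest and lowest library against 7.92 for Col3a1. Collagen VI makes beaded filaments around cells. Its highest member, Col6a1, was at 9.79, 10.8 and 7.47 FPKM in Con, at 15.2, 8.89 and 6.84 in MNC, at 7.07, 8.24 and 7.79 in M1, at 3.90, 8.97 and 6.10 in M3 and at 9.75, 9.92 and 14.4 in M5. M5 was above M1 and M3 in every library here too, and MNC replicate 1 was the highest of all libraries for Col6a1. Col6a2 and Col6a3 ranged from 2.75 to 11.7 and from 2.18 to 5.05 FPKM, and no collagen VI gene was called.

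Fibrillin, fibronectin, fibulin and periostin organise fibres and bind cells. Fbn1 (Gene ID 14118, chromosome 2, 125300594 to 125506485), the main protein of microfibrils, was at 2.44, 2.66 and 1.87 FPKM in Con, at 2.35, 2.22 and 1.48 in MNC, at 1.71, 2.44 and 1.93 in M1, at 1.52, 2.06 and 1.6 in M3 and at 3.11, 2.83 and 4.47 in M5. All 3 M5 libraries were above the other 12, and the gene was called over the 5 groups. Its differences of M5 from MNC (0.56, SE 0.187, limma adjusted p = 0.128), M1 (0.55, SE 0.169, 0.103) and M3 (0.70, SE 0.168, 0.338) were not called pairwise, and that from M3 had the lowest p of the matrix genes in its comparison. Postn (periostin) was the most abundant of this role and had the lowest p between M5 and MNC. It was at 7.29, 10.1 and 7.13 FPKM in Con, at 5.56, 6.99 and 6.49 in MNC, at 6.55, 7.09 and 8.01 in M1, at 6.36, 7.36 and 6.06 in M3 and at 9.37, 7.53 and 9.60 in M5. M5 did not overlap MNC, and the difference of 0.42 was not called (SE 0.127, limma adjusted p = 0.106). With all 5 groups in one fit, which shares one estimate of the spread, Fbn1 and Postn were called in M5 against MNC (limma adjusted p = 0.0359 and 0.0492). No other setting called either gene in this comparison. With the GC trend removed, the difference of Postn was 0.20 (limma adjusted p = 0.488). Postn had a GC content of 36.3%, against a median of 53.7% over the matrix genes. Fn1 (fibronectin) was at 7.45 FPKM in M5 replicate 3 and at 2.62 to 4.19 in the other 14 libraries, and Fbln1 ranged from 2.48 to 5.15.

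The small proteoglycans bind collagen fibrils. Dcn (decorin), the highest, was at 43.0, 51.0 and 35.6 FPKM in Con, at 51.0, 35.9 and 33.7 in MNC, at 35.9, 33.01 and 32.96 in M1, at 28.0, 36.5 and 32.8 in M3 and at 40.8, 42.0 and 81.9 in M5. The groups overlapped except M5 with M1 and M3, and M5 replicate 3 was far above the rest. Bgn (biglycan) and Lum (lumican) also had their highest values there, at 49.7 and 4.70 FPKM, against at most 28.6 and 2.78 elsewhere. Sparc, a collagen-binding glycoprotein made by Sertoli and Leydig cells among others, was at 229, 230 and 216 FPKM in Con, at 207, 168 and 140 in MNC, at 151, 161 and 153 in M1, at 127, 177 and 130 in M3 and at 166, 157 and 274 in M5. Con lay above all injected libraries except M5 replicate 3. Its difference of -0.40 between MNC and Con was not called (SE 0.136, limma adjusted p = 0.079). Sparcl1, a relative of Sparc, was below the lowest Con value of 15.6 FPKM in 10 of 12 injected libraries.

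Mmp2 degrades basement membrane collagen, and Timp1 and Timp2 inhibit such proteases. Timp2, the most abundant, was at 70.8, 79.3 and 66.1 FPKM in Con, at 60.8, 60.9 and 57.6 in MNC, at 57.2, 53.4 and 56.8 in M1, at 39.8, 60.1 and 41.9 in M3 and at 49.7, 49.8 and 80.8 in M5. For Timp2, 11 of 12 injected libraries were below the lowest Con value, a count that was not made over all genes tested. The difference of MNC from Con was -0.26 (SE 0.0732), not called. Timp1 was at 22.2 FPKM in M5 replicate 3, against 5.09 and 5.89 in the other 2 M5 libraries and 2.97 to 6.66 in the other 12, and Mmp2 was at 7.05 there and at 0.60 in M3 replicate 1. These 2 genes were chosen for mention after their values were seen. No gene of this role was called.

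Of 86 other genes of the matrix, its processing and its receptors, 63 passed the filter. Between MNC and Con 8 of them were called lower and 1 higher, where 12.4% of all genes tested were called lower. Of the 86, 55 were lower, where 64.6% of all genes tested were, so that both counts were near the background. Of the genes called lower, the lowest p belonged to Lamc3, a laminin gamma chain, which fell by 0.57 from 8.48 ± 0.869 to 5.38 ± 0.631 FPKM (SD, n = 3, limma adjusted p = 0.0254), Plod2, which hydroxylates lysines of collagen and fell by 0.85 (limma adjusted p = 0.0263), and Col4a4, a collagen IV chain that fell by 0.61 (limma adjusted p = 0.0273). Sdc3, a syndecan with heparan sulfate chains, rose by 0.65 (limma adjusted p = 0.021). Between M5 and M1, Efemp1, an extracellular matrix glycoprotein of the fibulin family, was called higher in M5, with 4.65, 3.96 and 6.91 FPKM against 1.96, 2.63 and 1.66 (0.99, SE 0.205, limma adjusted p = 0.0427). limma called none of the 63 in the other 4 comparisons, where 6 (M5 against MNC), 1 (M1 against MNC), 13 (M3 against MNC) and 12 (M5 against M3) had an unadjusted p under 0.05, against 24.9%, 5.94%, 9.43% and 14.3% of all genes tested. The median log2 difference of the 86 genes was -0.07 between MNC and Con, 0.11 for M5 against MNC, 0.17 against M1 and 0.28 against M3.

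The marker lists of other cells differed between Con and MNC in both directions. The 5 markers of peritubular myoid cells other than Actg2 summed to 45.4 to 50.1 FPKM in Con and to 34.1 to 40.6 in MNC, and Acta2 (fell by 0.47, limma adjusted p = 0.0171) and Cnn1 (fell by 0.45, limma adjusted p = 0.0338) were called. Actg2, also on the list, was at 119 to 154 FPKM in Con and at 150 to 179 in MNC, so that the list with all 6 genes was at 167 to 199 in Con and at 190 to 214 in MNC. The Sertoli list was at 487 to 562 FPKM in Con and at 441 to 502 in MNC, the stroma list at 11.47 to 12.84 and 7.75 to 10.96, the endothelial list at 8.31 to 9.28 and 8.04 to 10.9, and the Leydig list overlapped. The 4 spermatocyte markers were at 383 to 398 FPKM in Con and at 299 to 310 in MNC, those of round spermatids at 527 to 576 and 626 to 666, and those of elongating spermatids at 9145 to 18613 and 18634 to 24602. Epididymis markers summed to 14.1 to 36.2 FPKM in Con, to 1.38 to 2.09 in MNC and to 24.1 in M3 replicate 1, with Crisp1 at 32.3, 2.86 and 12.2 FPKM in Con. The part of these differences in the lower levels of Lamb1, Lamb2 and Col18a1 was not tested.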

How the data were processed

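RNA sequencing of 15 mouse testis libraries was analysed from 1 table in which the authors deposited FPKM values to 2 decimals. Per the study's methods, poly(A) RNA was sequenced, reads were mapped with SOAPaligner, and values were scaled by gene length and mapped reads, which carries a change in a few abundant genes into all others. The submitters' processing notes name the mm10 build, and the annotation was not given in the sources used here. The titles and tissue label name testis, while the extraction text names sperm. Libraries were mapped by title, since the description of M5 replicate 2 points to the data of M5 replicate 1. Entrez IDs were named with RefSeq tables of GRCm38.p6, which gave 21143 of 23510 a symbol (89.9%).

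Groups were compared on log2(FPKM + 1) with limma 3.58.1 in R 4.3.3, with a variance trend, over the 14514 genes with a mean of at least 1 FPKM. Tests were two-sided, each comparison was fitted on its 6 libraries, and p-values were adjusted by Benjamini-Hochberg over all 14514 genes, with 0.05 as the threshold. FPKM do not allow the count model of the study. The procedure was tested on simulated data with independent noise for each gene. Such data lack the shared variation between genes and the outlying libraries seen here, so the simulation does not bear on those. The labels name no batch. The 35 genes, the other lists and the tests were chosen with earlier results of these data known. Values in every library are given for the most abundant gene of each role, for up to 4 called genes with the lowest p in a comparison, and, where none was called, for the gene with the lowest p. Of the other matrix genes, up to 3 called genes with the lowest p are named for each comparison and direction. Alternatives covered the pseudocount, the filter, scaling, GC content, the variance model, a replicate block, one fit of all groups, the study's threshold and each library left out.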

Additional observations from a re-analysis of the deposited data

Results flagged for a closer look

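Nid2 differed between M5 and M1, which were compared directly. Against MNC neither group was called, with log2 differences of -0.36 in M5 and -1.27 in M1 (limma adjusted p = 0.498 and 0.819). The MNC libraries were split, at 7.32, 2.72 and 6.11 FPKM. The difference itself, M5 against M1, was 0.91 on the log2 scale (limma adjusted p = 0.0131), and all 3 M5 libraries were above all 3 M1 libraries. It was called under 11 of 15 alternatives and ranged from 0.84 to 1.25, with limma adjusted p from 0.0104 to 0.0926. Without M1 replicate 1, M1 replicate 3 or M5 replicate 2, and with a replicate block, it was not called. Calls over all genes tested fell from 980 to 56, 85, 135 and 39 in these settings. The study's threshold was not among the 15 alternatives. It called no matrix gene between M5 and M1 and 8 of all genes tested. Groups of 3 libraries are too small for a test of single outlying libraries.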

How the results depend on the processing

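Of the 33 tested matrix genes, 3 were called between MNC and Con, and the count was 1 with a filter at a mean of 0.1 FPKM, with centring on the median and without a variance trend, 0 without a filter and at the study's threshold, and 5 with the GC trend removed. Calls over all genes were 2967 in the main fit, 2399, 1869 and 2551 in the settings with 1 call, and 1632 and 2 in those with 0. With the GC trend removed they were 3379. A changed filter also changes how many genes are tested. With each library left out the count of matrix genes ranged from 0 to 4, where 8 to 2497 of all genes were called. The count was 0 without Con replicate 1, Con replicate 2 or MNC replicate 3, and without MNC replicate 2 the 2 calls were Nid2 and Col14a1, both higher in MNC. Lamb1 was called under 9 of 15 alternatives, Lamb2 under 4 of 16 and Col18a1 under 3 of 15, with the same direction in each. These counts leave out the study's threshold. The 0 calls of M5 against MNC became 2 with all 5 groups in one fit, where calls over all genes rose from 820 to 2424. The 0 of M1 against MNC ranged from 0 to 1 with libraries left out. The 1 call came without MNC replicate 2, where calls over all genes rose from 0 to 12. The 1 call of M5 against M1 was Col1a2 in place of Nid2 with a filter at 5 FPKM, was 0 at the study's threshold and ranged from 0 to 4, with 4 without M5 replicate 3. Calls over all genes were 980 in the main fit, 1267 with that filter, 8 at that threshold and 1690 without M5 replicate 3. The 4 calls over the 5 groups were 2 with a filter at 5 FPKM and ranged from 3 to 10, with 7 without M3 replicate 2 and 10 without M5 replicate 3. Calls over all genes were 4878 in the main fit, 4491 with that filter, and 4586 and 5835 without these libraries. The causes were not tested, except that left-out libraries leave fewer samples. The counts of M3 against MNC and of M5 against M3 stayed at 0 under all 17 alternatives each.

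Deviations from the group mean in samples with the same replicate number had r from -0.399 to 0.177. With 3 libraries a group and outlying libraries among them, these values cannot show whether the numbers pair the samples. With a replicate block, 0 matrix genes were called between MNC and Con, 0 between M5 and M1 and 3 over the 5 groups. Of all 14514 genes tested, 10, 39 and 3551 were called. The median of the matrix genes kept its direction under all 10 alternatives of each comparison. It ranged from 0.01 to 0.33 for M5 against MNC and from -0.28 to -0.02 for MNC against Con. With the GC trend removed it was 0.27 and -0.20. Centring, quantile normalization and removal of the GC trend used the 33 tested genes. The other settings used all 35. The genes had a median GC content of 53.7%, against 49.4% of all genes, and across genes GC content had a Spearman rho of -0.45 with the M5 against MNC difference. Depth is unknown, so no counting error can be given for low genes such as Lama5.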
